A study of Mus musculus with 2 samples.

Results

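The genes described here are 35 members of the integrated stress response and of the amino acid programme controlled by its transcription factor ATF4, read from a table of 55414 mouse genes. Members were taken by their listed names, and all 35 were found by gene symbol. They were measured by poly(A) RNA sequencing in RAW246.7 cells, the submitters' spelling for a mouse macrophage-like line that grows in culture. The control library came from cells held for 24 h under a strain that the labels call normal without giving its value, and the stretched library from cells held for 24 h at 20% elongation. No genetic change or further agent is named for either culture, and the labels do not say whether the strain was cyclic or constant. The labels also give synovial membrane as the tissue.

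Each group had 1 library, so the spread between cultures is unknown and no test of the strain was possible. A difference below is the log2 ratio of scaled estimated counts, stretched over control, with an exact 95% interval that covers counting error only; reads carried no molecular identifiers, so PCR copies of 1 molecule could not be told from separate molecules. A gene was counted as higher or lower under a size rule: a sum of at least 20 counts in the pair of libraries, a difference of 2-fold or more, and an interval that left out equality. The control library held 14769100 counts and the stretched library 13391645, and 12772 genes reached 20 counts. All 8 macrophage markers passed that filter, with 83897 summed counts in control and 98758 in stretched. The 8 synovial fibroblast markers summed to 17 and 14 counts, and Col1a2, Col3a1, Pdgfra, Thy1 and Dcn were at 0 in both libraries, so the tissue label did not match the RNA while the cell line did. Endothelial markers summed to 39 and 43 counts, B cell markers to 11 and 14, and T cell markers to 138 and 93, of which Lck alone gave 133 and 87.

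The integrated stress response begins when kinases that sense different stresses phosphorylate the translation initiation factor eIF2. Bulk protein synthesis then slows, while translation of some mRNAs, Atf4 among them, increases. ATF4, a basic leucine zipper factor, pairs with other factors of its class and switches on genes for amino acid synthesis, amino acid uptake and tRNA charging, and, with CHOP (the product of Ddit3), genes linked to cell death and to feedback on the pathway. Because ATF4 is controlled largely through translation and protein stability, its mRNA does not report its protein, which was not measured. In macrophages the pathway is known for responses to amino acid shortage, oxidative stress and misfolded proteins.

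The listed genes did not move as a block. Chac1 and Ddit3 were higher in stretched cells, at 2.44-fold and 2.11-fold, and Pycr1 was lower at 2.04-fold. The other 31 measured members met the size rule in neither direction, and most of them lay slightly below the control: their median difference was -0.17, with 25 of 31 below 0. Of the 34 members past the count filter, 5.88% were higher and 2.94% lower, against 3.12% and 1.94% of all 12772 genes. Of the 31 members with at least 1000 counts, 3.23% (1 gene) were higher and 0% lower. Of the 6050 genes at that depth, 0.81% were higher and 0.264% lower. The members' shares rest on 2 genes and 1 gene, too few to set apart from the background. The share with any difference below 0 was 76.5% (26 of 34), against 50.1% of all genes. Counting intervals lay wholly below 0 for 23 members (67.6%), against 21.9% of all genes, and wholly above 0 for 4 (11.8%), against 22.9%. Vldlr, which encodes the very low density lipoprotein receptor, had 0 counts in both libraries and is the member that did not pass the filter. In bulk RNA, fewer cells that express a gene and less of its RNA per cell cannot be told apart.

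**Figure D1:**
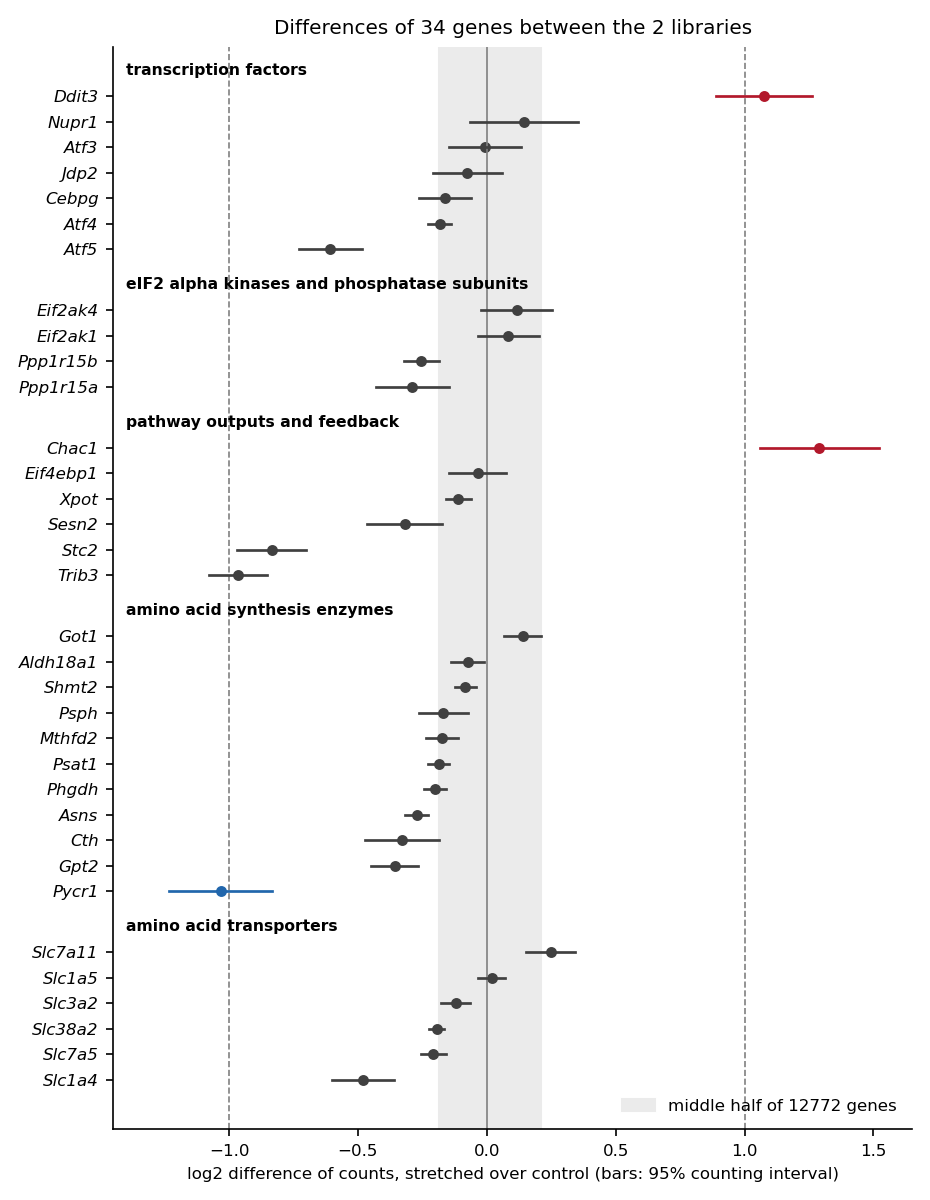
Each point is the log2 difference of counts between the stretched and the control library for 1 gene, with its 95% counting interval, by role; the grey band is the interquartile range of 12772 genes. Chac1 and Ddit3 lie above 1, Pycr1 lies below -1, and Trib3, Stc2 and Atf5 form the next lowest group.

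The shift below 0 was also present among abundant members. Narrow intervals are more common at high counts, so the members were set beside genes of like abundance. Of the 14 members with at least 5000 counts over both libraries, 12 (85.7%) lay below 0, against 56.6% of the 1142 genes at that depth, and the members' median was -0.18 against -0.04 for those genes. Intervals lay wholly below 0 for 85.7% of these members, against 45.1% of genes at that depth, and for 71.0% of the 31 members with at least 1000 counts, against 30.3% of the 6050 genes there. All 14 lay between -0.27 and 0.14, a span in which no gene differs by 1.5-fold. Summed over the members, the control library gave 139897 counts, or 0.947% of its total (Wilson 95% interval 0.942 to 0.952), and the stretched library gave 114426, or 0.854% (0.85 to 0.859). Without Chac1, Ddit3 and Pycr1 the shares were 0.939% and 0.843%. With a threshold of 1.5-fold in place of 2-fold, the same 2 members were higher (5.88%, against 6.2% of all genes), and 4 were lower: Pycr1, Trib3, Stc2 and Atf5 (11.8%, against 3.64%).

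By level the set spans a wide range. Levels are compared between genes in FPKM, the authors' fragment count per kilobase of transcript scaled to depth. Phgdh was the highest member in both libraries, at 333 FPKM in control and 298 in stretched, followed by Atf4 at 323 and 294. Chac1 was the lowest detected member in control at 8.5 FPKM and stood in place 26 of 34 in stretched at 21.5. Ddit3 moved from place 25 to place 15, Trib3 from 15 to 20, and Pycr1 from 28 to the last place.

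**Figure D2:**
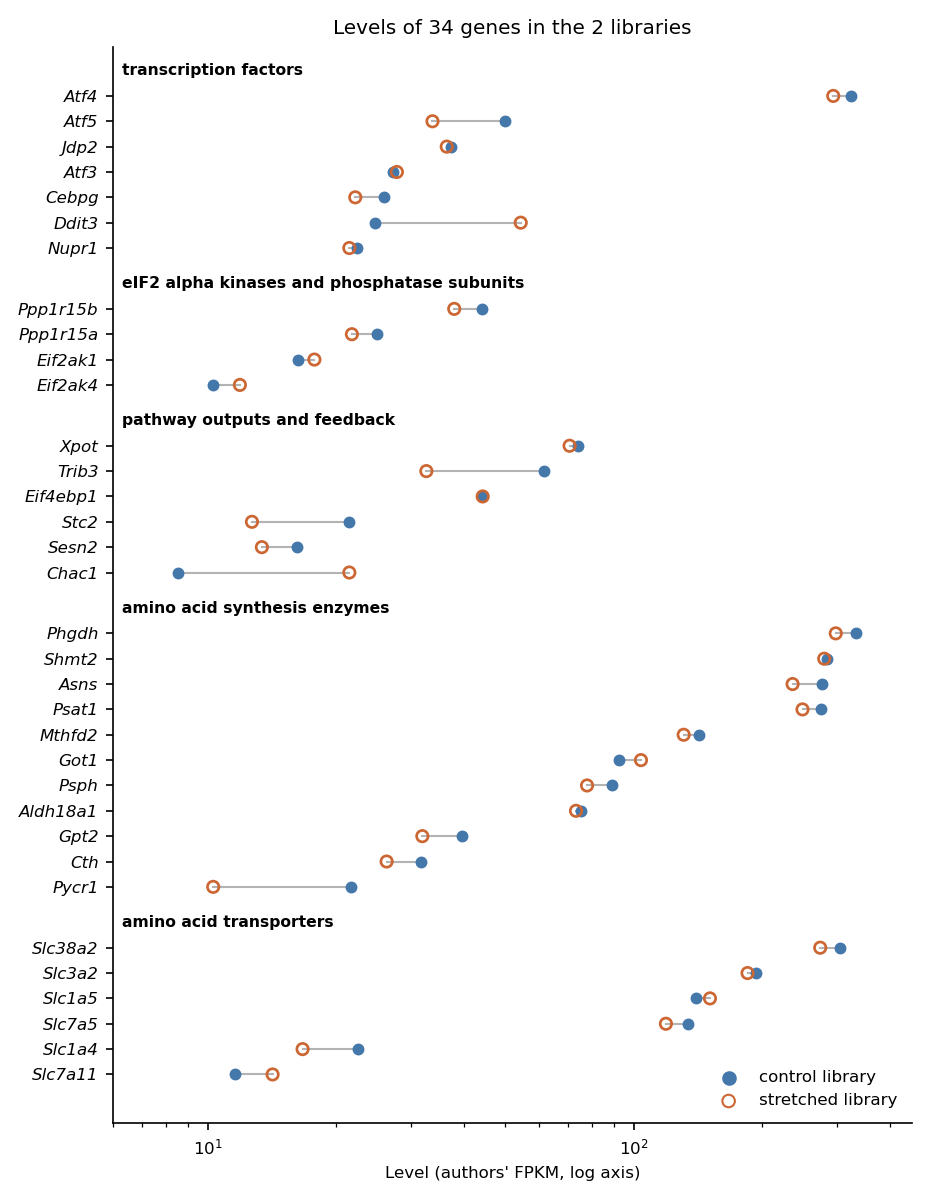
Levels of the 34 detected genes in FPKM on a log axis, ordered by role, with a filled point for the control library and an open point for the stretched library. Phgdh, Atf4, Slc38a2, Shmt2, Asns and Psat1 are the most abundant in both libraries, and the widest gaps between the points are those of Chac1, Ddit3, Pycr1 and Trib3.

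Of the 7 transcription factors, Ddit3 was higher (14.3%, against 3.12% of all genes) and the other 6 met the size rule in neither direction. Ddit3 (ENSMUSG00000025408, GRCm39 chr10:127126643-127132157, plus strand) encodes CHOP, a leucine zipper factor associated with cell death under lasting stress. It had 365 counts (24.7 FPKM) in the control library and 705 counts (54.3 FPKM) in the stretched library, a log2 difference of 1.07 with a counting interval of 0.89 to 1.26. Its main protein-coding transcript went from 308 to 649 counts, a difference of 1.20, while its retained-intron transcript stayed near its control count at 54 and 50. The gene model shares 68 bases with Mars1 on the opposite strand, which had 4375 and 4018 counts and a difference of 0.00.

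Atf4 itself (ENSMUSG00000042406, GRCm39 chr15:80139385-80141742, plus strand), the central factor of the response, had 9173 counts (323 FPKM) in control and 7406 counts (294 FPKM) in stretched. The log2 difference was -0.18 with an interval of -0.23 to -0.14, so the stretched library held slightly less Atf4 RNA. Atf5 (ENSMUSG00000038539, GRCm39 chr7:44461680-44466082, minus strand), a related factor whose mRNA is also translated more under stress, had 1479 counts (49.9 FPKM) in control and 890 counts (33.7 FPKM) in stretched, a difference of -0.61 (-0.73 to -0.49). Atf5 shares 571 bases with Nup62 on the opposite strand, which had 3296 and 2231 counts and a difference of -0.44. The library kit marks strand, but the strand setting of the counting was not given in the sources used here, so the part of shared reads in the Atf5 value was not tested.

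The remaining factors lay closer to the control. Cebpg, a dimer partner of ATF4, had 1771 and 1449 counts and a difference of -0.16 (-0.27 to -0.06). Atf3, a stress-induced factor of the same class, had 881 and 803 counts (-0.01, interval -0.15 to 0.13), and its sign turned above 0 with library totals or FPKM. Jdp2, an AP-1 family repressor, had 999 and 869 counts (-0.08, interval -0.21 to 0.06). Nupr1, a small stress-induced nuclear protein, had 374 and 379 counts (0.14, interval -0.07 to 0.35), and its sign turned below 0 with FPKM or with protein-coding transcripts alone. The intervals of Atf3, Jdp2 and Nupr1 all included 0, so no difference of their gene totals was detectable at this depth. The transcript classes of Nupr1, given below, differed in sign.

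Of the genes that set eIF2 phosphorylation, the listed kinases both had values slightly above 0: Eif2ak1, the heme-regulated kinase, had 1153 and 1120 counts (0.08, interval -0.04 to 0.20), and Eif2ak4, the kinase GCN2 that senses uncharged tRNA, had 865 and 859 counts (0.12, interval -0.02 to 0.25). Both intervals included 0. The regulatory subunits that direct protein phosphatase to eIF2 both lay below 0: Ppp1r15a (GADD34), the inducible subunit, had 969 and 727 counts (-0.29, interval -0.43 to -0.15), and Ppp1r15b (CReP), the constitutive one, had 3902 and 2999 counts (-0.25, interval -0.32 to -0.19). None of the 4 met the size rule, which does not set them apart, as 3.12% of all genes were higher and 1.94% lower. Eif2ak1 shares 1548 bases with Aimp2 on the opposite strand, which had 477 and 421 counts.

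Among the 7 stress outputs and feedback genes, the largest gain and one of the largest losses stood side by side. Chac1 (ENSMUSG00000027313, GRCm39 chr2:119181710-119184862, plus strand), which encodes an enzyme that degrades glutathione, had 228 counts (8.5 FPKM) in control and 511 counts (21.5 FPKM) in stretched. Its log2 difference of 1.29 (1.06 to 1.52) was the highest of the set. Trib3 (ENSMUSG00000032715, GRCm39 chr2:152179342-152185952, minus strand), a pseudokinase induced by ATF4 and CHOP that dampens their activity, had 2025 counts (61.7 FPKM) in control and 950 counts (32.6 FPKM) in stretched. Its difference of -0.97 (-1.08 to -0.85) was 1.95-fold and fell short of the size rule, which it met at -1.01 when DESeq2 size factors replaced TMM scaling. Stc2 (ENSMUSG00000020303, GRCm39 chr11:31307307-31320074, minus strand), a secreted glycoprotein, had 1354 counts (21.5 FPKM) in control and 696 counts (12.7 FPKM) in stretched, a difference of -0.83 (-0.97 to -0.70).

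The other 3 detected outputs differed less. Sesn2, a leucine-binding regulator of mTORC1, had 919 and 675 counts (-0.32, interval -0.47 to -0.17). Xpot, the tRNA exportin, had 7203 and 6116 counts (-0.11, interval -0.16 to -0.06). Eif4ebp1, which blocks the cap-binding initiation factor, had 1436 and 1284 counts (-0.04, interval -0.15 to 0.07), and its sign turned above 0 with FPKM. Only Chac1 of the 6 detected genes in this role lay above 0 in the counts.

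All 11 enzymes of amino acid synthesis were detected, and 10 (90.9%) had counting intervals wholly below 0. That share was 21.9% among all genes and 45.1% among genes with at least 5000 counts. Pycr1 (ENSMUSG00000025140, GRCm39 chr11:120526538-120534595, minus strand), a mitochondrial enzyme of the last step of proline synthesis, was the lowest: 663 counts (21.7 FPKM) in control and 297 counts (10.3 FPKM) in stretched, a difference of -1.03 (-1.24 to -0.83). On the log2(FPKM + 1) scale its difference was -0.9997, just inside 2-fold, so the size rule was not met there. Aldh18a1, which catalyses the steps before it in the proline route, had 4195 and 3654 counts and a difference of -0.07 (-0.14 to -0.01).

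The serine synthesis enzymes Phgdh, Psat1 and Psph showed small, even differences. Phgdh, the first enzyme of serine synthesis, had 10261 and 8186 counts (-0.20, interval -0.24 to -0.16). Psat1, the next enzyme, had 11458 and 9223 counts (-0.19, interval -0.23 to -0.15), and Psph, the last, had 2013 and 1642 counts (-0.17, interval -0.26 to -0.07). The intervals of Phgdh, Psat1 and Psph overlapped each other, and that of Shmt2 lay above those of Phgdh and Psat1. Shmt2, the mitochondrial serine hydroxymethyltransferase, had 9884 and 8553 counts (-0.08, interval -0.13 to -0.04), and Mthfd2, the mitochondrial folate enzyme that follows it, had 4790 and 3894 counts (-0.17, interval -0.23 to -0.11). Psph shares 452 bases with Cct6a on the opposite strand, which had 5658 and 5050 counts.

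Of the other enzymes, Asns, the asparagine synthetase, had 8914 counts (276 FPKM) and 6764 counts (236 FPKM), a difference of -0.27 (-0.32 to -0.23). Cth, which makes cysteine from cystathionine, had 940 and 686 counts (-0.33, interval -0.47 to -0.19). Gpt2, the mitochondrial alanine transaminase, had 2343 and 1677 counts (-0.36, interval -0.45 to -0.27). Got1, the cytosolic aspartate transaminase, was the enzyme whose interval lay above 0, at 3068 and 3097 counts (0.14, interval 0.07 to 0.21).

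None of the 6 amino acid transporters met the size rule, against 3.12% higher and 1.94% lower among all genes. Slc7a11, the cystine importer subunit that supplies glutathione synthesis, had 1732 control counts and 1885 stretched counts, a difference of 0.25 (0.15 to 0.34), the highest of the transporters. Slc1a4, a neutral amino acid transporter, was the lowest, at 1434 and 943 counts (-0.48, interval -0.60 to -0.36). Slc38a2, the glutamine and alanine transporter known to be induced by amino acid shortage, gave the most counts of any member, 23557 in control and 18864 in stretched (-0.19, interval -0.22 to -0.17). Slc7a5, the light chain of the leucine transporter, had 7647 and 6069 counts (-0.21, interval -0.26 to -0.16). Slc3a2, the heavy chain that pairs with Slc7a5 and Slc7a11, had 5796 and 4886 counts (-0.12, interval -0.18 to -0.07). Slc1a5, the glutamine transporter, had 6106 and 5668 counts (0.02, interval -0.03 to 0.07), and its sign turned below 0 with DESeq2 size factors or protein-coding transcripts alone.

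The transcripts of a gene did not always follow its total. Transcript estimates depend on how StringTie divided coverage between overlapping models, and their counting intervals leave that division out. Retained-intron transcripts of Atf4 had 597 counts (6.51% of the gene) in control and 299 (4.04%) in stretched, a difference of -0.87, while its protein-coding transcripts had 8576 and 7107, a difference of -0.15. In Nupr1 the classes differed in sign: the protein-coding transcript went from 259 to 183 counts (-0.37, interval -0.66 to -0.10), and retained-intron transcripts from 108 to 184 counts (0.89), or from 28.9% to 48.5% of the gene. Slc1a5 showed the same order, with protein-coding transcripts at 5891 and 5300 counts (-0.03) and retained-intron transcripts at 206 and 355 (0.91). Cebpg showed the opposite order, with retained-intron transcripts at 92 and 25 counts (-1.73) and protein-coding ones at a difference of -0.11. In Stc2 the protein-coding transcript went from 972 to 561 counts (-0.67) and a processed transcript from 376 to 128 (-1.43).

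**Figure D3:**
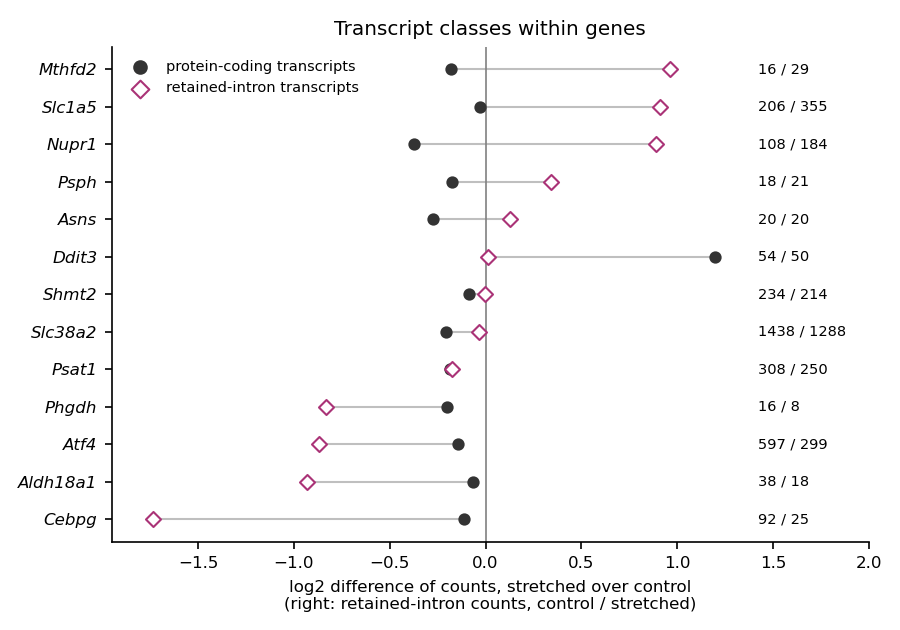
Log2 difference of counts between the stretched and the control library for protein-coding transcripts (filled circles) and retained-intron transcripts (open diamonds) of 13 genes, with the retained-intron counts of both libraries at the right. In Ddit3 the protein-coding point lies at 1.20 and the retained-intron point near 0, and in Nupr1 the points lie on either side of 0.

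In some genes the transcript models differed from each other by more than the gene totals did. Shmt2, with a total difference of -0.08, had a model of 2289 bases at 7262 counts in control and 2783 in stretched, from 73.5% to 32.5% of the gene (-1.26), and a model of 2238 bases at 2224 and 5421 counts, from 22.5% to 63.4% (1.41). Slc1a4 had a model of 3872 bases at 751 and 754 counts (0.13, interval -0.02 to 0.28) and a model of 3926 bases at 683 and 189 (-1.73). As StringTie divided the coverage, the lower Slc1a4 total lay in the second. Aldh18a1 had a model of 3527 bases at 2732 and 2902 counts (0.21) and one of 3427 bases at 1415 and 726 (-0.84). Pycr1 was lower in its main model of 1861 bases, at 606 and 249 counts (-1.16), and a model of 2914 bases had 51 and 47 (0.01, interval -0.60 to 0.61). Chac1 has 1 transcript in the table. No reads were used here, so the part of the division between models in these differences was not tested.

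The promoters of several members hold the CARE motif (C/EBP-ATF response element), the sequence at which ATF4 and its partners are known to act. The motif was searched as TGATGNAA, and as TTNCATCA for the other strand, in the RefSeq window from 250 bases before to 50 bases after the start of each gene (build GRCm38.p6, which differs from the GRCm39 build of the gene coordinates above). A window was given for 30 members, and 11 of them (36.7%) held a match: Atf3, Jdp2, Nupr1, Trib3, Chac1, Vldlr, Asns, Got1, Pycr1, Slc7a11 and Slc1a4. Of all 27025 genes with a window, 4.51% held one, and of all 32851 windows, 3.97% did. Many of these genes are known as ATF4 targets through such elements, which is partly why they are listed, and a match describes letters and not binding.
The stretches below are shown because the same motif stands in the windows of the highest member (Chac1), the lowest (Pycr1), the lowest output (Trib3), both ends of the transporters (Slc7a11 and Slc1a4) and the best-known amino acid response gene (Asns); capitals mark the motif, and each is written 5' to 3' on the strand of its gene.
Chac1, chr2:119351038-119351067, plus strand: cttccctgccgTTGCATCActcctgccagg
Pycr1, chr11:120643833-120643862, minus strand: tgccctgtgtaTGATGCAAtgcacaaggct
Trib3, chr2:152344028-152344057, minus strand: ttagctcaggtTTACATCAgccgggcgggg
Slc7a11, distal match, chr3:50443661-50443690, minus strand: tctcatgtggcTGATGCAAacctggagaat
Slc7a11, proximal match, chr3:50443642-50443671, minus strand: acctggagaatTTGCATCAtcatgcagccc
Slc1a4, chr11:20332699-20332728, minus strand: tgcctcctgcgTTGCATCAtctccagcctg
Asns, chr6:7693214-7693243, minus strand: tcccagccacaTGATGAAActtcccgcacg
The first motif base lies at -193 from the gene start in Chac1, -103 in Pycr1, 15 in Trib3, -66 and -47 in Slc7a11, -4 in Slc1a4 and -23 in Asns. The stretches of Slc7a11 overlap by their flanks, and their motifs do not. Members with a match that passed the count filter (10) had a median difference of -0.04 and spanned -1.03 to 1.29, and the 19 without one had a median of -0.17 and spanned -0.83 to 1.07, so a match went with both the highest and the lowest member. The window of Ddit3 held no match, and sequence outside the windows was not searched for any gene.

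Other genes of the pathway were read from 8 lists. Of 23 cytosolic aminoacyl-tRNA synthetases, which charge tRNAs, and their cofactors, none met the size rule and the median was -0.05. Among all genes 3.12% were higher and 1.94% lower, so an absence of calls does not set a list of this size apart. Below 0 lay 14 (60.9%), against 50.1% of all genes and 52.4% of genes with at least 1000 counts. The largest differences there were those of Eprs1 (10205 and 7083 counts, -0.40), Lars1 (6426 and 4634, -0.35), Wars1 (4010 and 2946, -0.32) and Gars1 (9527 and 7124, -0.29). None of the 15 genes for eIF2, its exchange factor eIF2B, the other eIF2 kinases and regulators of these met the rule. The shares of all genes were as above, and the median of the 15 was -0.14. Eif2ak2, the kinase PKR that senses double-stranded RNA, had 828 and 1350 counts (0.83), Eif2s2, an eIF2 subunit, had 6946 and 4625 (-0.46), Dnajc3, a chaperone that inhibits eIF2 kinases, had 1574 and 1902 (0.40), and Eif2ak3, the endoplasmic reticulum kinase PERK, had 573 and 616 (0.23).

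Further known ATF4 or CHOP targets lay on both sides of the control, 8 above 0 and 5 below (38.5%, against 50.1% of all genes). Of the 13 that passed the filter out of 15, 1 was higher (7.69%, against 3.12% of all genes), 2 were lower (15.4%, against 1.94%) and the median was 0.14. Gdf15, a secreted stress cytokine, had 31 counts in control and 79 in stretched (1.46, interval 0.86 to 2.12). Ero1a, an oxidase that forms disulfide bonds in the endoplasmic reticulum, had 7032 and 2989 counts (-1.11, interval -1.17 to -1.05). Gadd45a, a growth arrest gene, had 56 and 24 counts (-1.08), and its difference on the log2(FPKM + 1) scale was -0.79. Tnfrsf10b, a death receptor induced by CHOP, had 79 and 48 counts (-0.59), and Vegfa, a growth factor for blood vessels, had 899 and 650 (-0.34). Fgf21 and Adm2 were at 0 counts in both libraries.

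The unfolded protein response of the endoplasmic reticulum was the list whose values lay farthest above 0. Of its 12 genes, 2 were higher (16.7%, against 3.12% of all genes) and 1 lay below 0 (8.33%, against 50.1%). The median was 0.77, beside -0.0014 for all genes. Hspa5, the chaperone BiP, had 14563 counts in control and 30287 in stretched (1.18, interval 1.15 to 1.21). Sdf2l1, an endoplasmic reticulum chaperone cofactor, had 848 and 1573 counts (1.02, interval 0.90 to 1.14). Pdia6, a disulfide isomerase, had 4013 and 7000 counts (0.93), and Hyou1, another chaperone, had 6651 and 10827 (0.83).

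**Figure D4:**
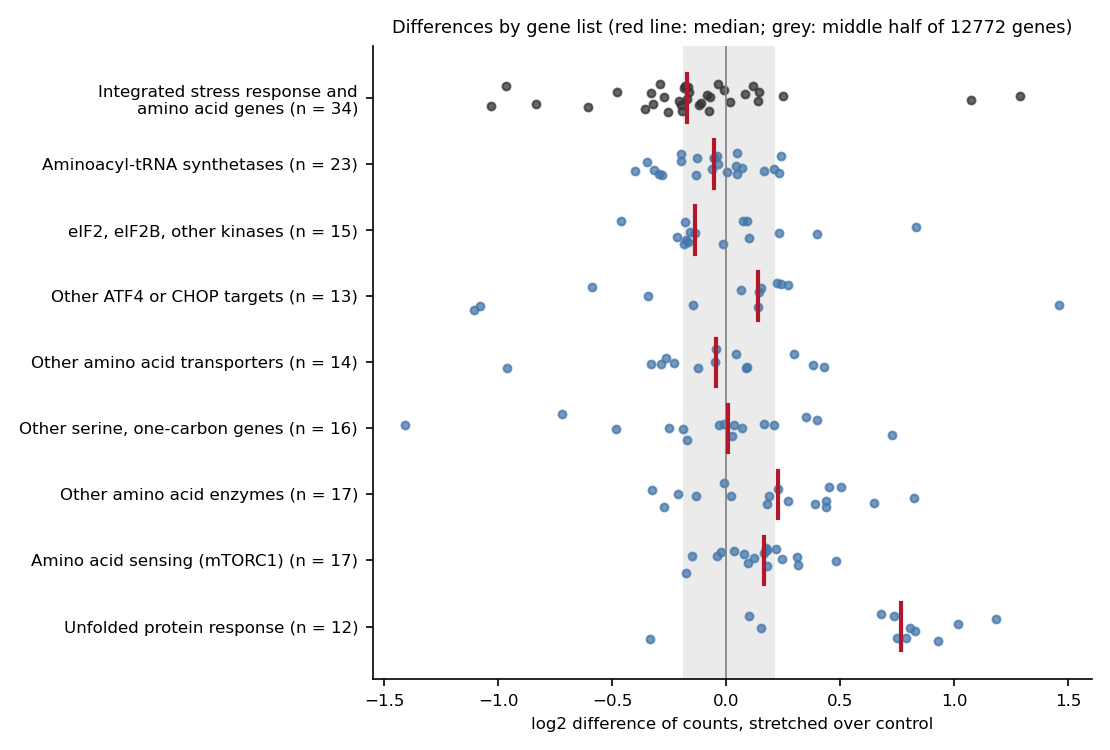
Each point is the log2 difference of counts between the stretched and the control library for 1 gene. The 34 detected members share 1 row, and each pathway list has its own. The red line is the median of a row and the grey band the interquartile range of 12772 genes. The unfolded protein response list has its median at 0.77, and the members have theirs at -0.17.

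The amino acid lists beyond the members had medians between -0.05 and 0.23. Of 17 other amino acid enzymes, 12 lay above 0 and 5 below (29.4%, against 50.1% of all genes), with a median of 0.23. None met the size rule, against 3.12% higher and 1.94% lower among all genes. Odc1, the first enzyme of polyamine synthesis, had 3385 and 5488 counts (0.82), Bcat2, the mitochondrial branched-chain transaminase, had 658 and 825 (0.45), and Gpt, the cytosolic partner of Gpt2, had 208 and 258 (0.44). Of 17 detected mTORC1 amino acid sensing genes, 13 lay above 0 and 4 below (23.5%, against 50.1% of all genes), with a median of 0.16. Fnip2, a folliculin partner, had 3717 and 4750 counts (0.48), and Nprl2, a GATOR1 subunit, had 237 and 270 (0.31). Rraga, a Rag GTPase, had 907 and 1032 counts (0.31), and Castor2, of the arginine sensor family, had 680 and 738 (0.24). Of 16 other serine, glycine and one-carbon genes, 8 lay above and 8 below 0, and Aldh1l1, a cytosolic folate enzyme, was lower (6.25% of the list, against 1.94% of all genes) at 27 and 9 counts (-1.41), a difference of -0.39 on the log2(FPKM + 1) scale. In that list Aldh1l2, a mitochondrial folate enzyme, had 3027 and 1684 counts (-0.72), Mthfd1l, which releases mitochondrial formate, had 2569 and 1684 (-0.48), and Gcsh and Amt, both of the glycine cleavage system, had 880 and 1062 (0.40) and 40 and 61 (0.73). Of 14 detected other amino acid transporters, none met the rule, against 3.12% higher and 1.94% lower among all genes, and the median was -0.05. Slc7a8 had 111 and 52 counts (-0.96), Slc36a1 had 751 and 928 (0.43), Slc38a10 had 1997 and 2383 (0.38) and Slc6a9 had 1071 and 780 (-0.33).

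The authors' deposited table lists 34 of the members and marks 2 as up (Chac1 and Ddit3) and 1 as down (Pycr1). In the authors' deposited table the adjusted p-value was 9.22e-06 for Chac1, 0.000256 for Ddit3, 0.000737 for Pycr1, 0.000642 for Trib3, 0.00802 for Stc2, 0.143 for Atf5 and 1 for Atf4. All 23250 p-values of that table were matched within 0.05 on the log10 scale by edgeR's exact test once the biological coefficient of variation was assumed to be 0.1. Those values therefore take the variation between cultures as given and do not measure it.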

How the data were processed

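Members, roles and pathway lists were chosen with earlier results of these data known. Per the submitters' processing notes, transcripts were quantified with StringTie on GRCm39; aligner, versions and strand setting were not given in the sources used here. Per the labels' protocols, poly(A) RNA was extracted with TRIzol and made into dUTP strand-marked libraries. Each gene of the deposited gene table has an FPKM and an estimated count per library, per the file headers, and a second deposited table the same per transcript; the authors' comparison table holds a log2 fold change and p-values. Columns marked as control were assigned to the sample titled NC. The deposited counts are FPKM coverage rounded up per transcript (100% of transcripts with a length and a value, tolerance 0.05), which raises low counts.

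Here TMM factors from edgeR 4.0.16 in R 4.3.3 (0.995 control, 1.01 stretched) scaled the gene counts, and log2 differences took a prior of 0.5 counts. Intervals are exact conditional binomial 95% intervals, computed with scipy 1.17.1. The scripts were tested on simulated data. Genes named were all 35 members and, per pathway list, those that met the size rule and up to 4 with the largest difference among genes with at least 100 counts. A gene that this rule names is not reported here. Of 136 list entries, 118 matched a symbol and 18 a synonym. Alternatives were library totals, DESeq2 1.42.0 size factors, other filters, prior and fold, FPKM with a pseudocount of 1 or 0.1, counts without rounding up and same-strand locus sums.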

Additional observations from a re-analysis of the deposited data

How the results depend on the processing

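Chac1 and Ddit3 were the 2 members higher under all 11 alternatives. The count of lower members, 1 (Pycr1) as reported, was 2 with DESeq2 size factors (Trib3 added), 0 with log2(FPKM + 1) and 4 with a 1.5-fold threshold. Between 25 and 28 members lay below 0, and their median ran from -0.21 to -0.14. All genes moved as well: 55.9% lay below 0 with DESeq2 size factors (median -0.04) and 44.6% with log2(FPKM + 1) (median 0.03). Under those settings 27 and 25 members lay below 0, with medians of -0.21 and -0.14. The sign changed for 4 members, Atf3, Eif4ebp1, Nupr1 and Slc1a5, of which Nupr1 had the largest reported difference, 0.14. Of 340 single-member values, 320 kept their call or stayed within the reported interval. Psat1, Phgdh, Shmt2 and Slc38a2 left their intervals with DESeq2 size factors. Atf4, Asns, Psat1, Shmt2, Slc38a2 and Slc1a5 left theirs on both FPKM scales. Shmt2 stood at -0.13 with DESeq2 size factors and -0.03 with log2(FPKM + 1), against -0.08 as reported. For these abundant members the choice of scaling or measure moved the value by more than the counting interval covers. Protein-coding transcripts alone, chosen after seeing the data, left 28 members below 0. Among all genes, 398 were higher and 248 lower as reported, 150 and 68 with log2(FPKM + 1), 182 and 66 with at least 100 counts, 792 and 465 at 1.5-fold, and 538 and 370 with no count filter. Same-strand overlaps moved little: summing same-strand loci shifted no member by more than 0.02. Opposite-strand overlaps, present for 9 members, did not enter these sums, and their part was not tested. No paired analysis was possible because each group had 1 library. For the same reason no replicate could be left out, and counting intervals, which leave out error of the scaling, are the only error available. At low counts, as in Gdf15, Gadd45a and Aldh1l1, depth and rounding limit the value.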

Other observations

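Ratios of FPKM within a library do not depend on the scaling between libraries. The ratio of Ddit3 to Atf4 was 0.0764 in control and 0.185 in stretched, and that of Chac1 to Atf4 was 0.0263 and 0.0731. The ratio of Trib3 to Atf4 went the other way, from 0.191 to 0.111. Set against Trib3, a feedback inhibitor, Ddit3 stood at 0.4 in control and 1.67 in stretched, so the order of the pair turned, and Chac1 stood at 0.138 and 0.659. These pairs set the highest members against one of the lowest, so their ratios restate the differences above and add no separate result. The ratio of Asns to Atf4, at 0.854 and 0.803, and those of Psat1 to Phgdh, at 0.826 and 0.834, and of Psph to Phgdh, at 0.267 and 0.261, changed little.

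In the proline route the ratio of Pycr1 to Aldh18a1 was 0.287 in control and 0.141 in stretched. Among partners of the heavy chain Slc3a2, the ratio of Slc7a5 was 0.69 and 0.642 and that of Slc7a11 was 0.0597 and 0.0765. With 1 library per group, no spread between cultures is known for these ratios.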
